A study of Mus musculus with 3 samples.

Results

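ETS transcription factors share a DNA-binding domain that recognises the core bases GGAA, and 10 of their genes that are known from epithelia are described here: Ehf, Elf3, Elf5, Spdef, Elf1, Elf2, Ets1, Ets2, Etv4 and Etv5. They were taken by gene symbol from the transcript table of the study, which gave 10 of 51803 symbols and 66 of 128603 transcripts. The study compared mpkCCD cells, a mouse line that models the principal cell of the kidney cortical collecting duct, with and without stable knockdown of the glucocorticoid receptor. The knockdown lines shGR1 and shGR2 each carried 1 of 2 hairpins against the receptor, and the shCtrl line carried a non-targeting hairpin. The question was which transcripts differ in cells with less of the receptor. All 3 lines were made with lentivirus, grown on permeable supports, kept in dexamethasone, an agonist of the receptor, after serum and the other supplements were withdrawn, and left without the vasopressin analogue dDAVP (0 nM). Each line gave 1 RNA-seq library, so a hairpin, a line and a library cannot be told apart.

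EHF, ELF3 and ELF5 form a subfamily whose expression is largely limited to epithelia, and SPDEF drives the maturation of secretory cells. ELF1 and ELF2 are widely expressed regulators of transcription. ETS1 and ETS2 are phosphorylated by MAP kinases downstream of RAS, while ETV4 and ETV5 act downstream of the receptor RET in the branching ureteric bud, from which the collecting duct grows. In the collecting duct ELF3, ELF5 and EHF have been linked to transcription of Aqp2, the gene of the vasopressin-regulated water channel, which holds ETS cores close to its start.

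The sequences printed here are the windows around the starts of Elf3, of both Elf1 transcripts and of Aqp2, as given by RefSeq on GRCm38.p6. Each runs over 300 bases in the sense of the gene, with 250 before the start and 50 from it on. Capitals mark the ETS core, GGAA or its reverse complement TTCC.
Elf3 (chr1:135258423-135258722, minus strand): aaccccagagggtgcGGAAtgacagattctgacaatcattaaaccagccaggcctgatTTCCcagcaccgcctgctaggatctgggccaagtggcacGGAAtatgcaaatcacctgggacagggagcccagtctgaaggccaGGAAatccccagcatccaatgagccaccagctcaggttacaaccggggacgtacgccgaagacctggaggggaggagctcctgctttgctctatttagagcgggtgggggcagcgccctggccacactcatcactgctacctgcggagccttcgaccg
Elf1 upstream (chr14:79480944-79481243, plus strand): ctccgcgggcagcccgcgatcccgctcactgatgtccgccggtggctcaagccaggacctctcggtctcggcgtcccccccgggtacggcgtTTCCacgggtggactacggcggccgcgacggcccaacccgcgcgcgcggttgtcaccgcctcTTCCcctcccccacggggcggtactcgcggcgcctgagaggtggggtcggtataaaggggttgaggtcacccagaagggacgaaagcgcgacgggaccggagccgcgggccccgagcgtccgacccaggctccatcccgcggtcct
Elf1 downstream (chr14:79515424-79515723, plus strand): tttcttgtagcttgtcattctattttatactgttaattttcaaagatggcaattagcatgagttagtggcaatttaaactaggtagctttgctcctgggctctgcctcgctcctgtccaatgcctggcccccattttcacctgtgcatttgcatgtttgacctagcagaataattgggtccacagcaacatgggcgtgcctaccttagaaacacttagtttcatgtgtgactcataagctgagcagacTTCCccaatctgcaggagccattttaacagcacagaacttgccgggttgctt
Aqp2 (chr15:99578806-99579105, plus strand): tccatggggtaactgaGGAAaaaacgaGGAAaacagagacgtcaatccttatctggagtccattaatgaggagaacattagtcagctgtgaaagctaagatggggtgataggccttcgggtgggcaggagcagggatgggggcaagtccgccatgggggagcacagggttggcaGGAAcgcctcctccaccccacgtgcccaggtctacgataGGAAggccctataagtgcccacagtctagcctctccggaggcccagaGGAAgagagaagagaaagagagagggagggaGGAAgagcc
The Aqp2 window held 6 ETS cores and the Elf3 window held 4. The Elf1 windows held 2 upstream and 1 downstream. The core is short, and 96.0% of 32851 promoter windows held at least 1, with a median of 3. The longer form AGGAAG (either strand, and containing the core) was found 3 times in the Aqp2 window and in neither the Elf3 window nor the Elf1 windows, and 35.4% of all windows held it. The hexamer AGAACA, which forms each arm of the palindromic element of the glucocorticoid receptor, was searched on both strands. It was found once in the Aqp2 window, at -179 to -174 from the start, and was not found in the Elf3 and Elf1 windows. The window of Avpr2, a vasopressin receptor gene, is not printed and held the hexamer at -59 to -54 and at -50 to -45. That window held 3 ETS cores and no AGGAAG. The hexamer was held by 19.0% of all windows. RefSeq windows were matched for 7 of the 10 genes, with none for Ehf, Ets1 and Etv4, whose starts were not searched. Of the 11 windows of these 7 genes 1, that of Spdef, held the hexamer. These matches are letters in a window and do not show that a factor was bound.

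Values are FPKM, an abundance scaled for transcript length and library depth that the authors estimated for each transcript, and they were summed over the transcripts of a gene. FPKM are scaled for length, so levels can be set against each other between genes. Genes that passed 0.3 FPKM in at least 1 of the libraries count as expressed. Ratios were taken against shCtrl with no pseudocount and are given on the log2 scale as the mean ± SD over the 2 knockdown lines, with 1 control library behind both. Of 15438 expressed genes, 43.8% were lower than shCtrl in both lines and 31.8% were higher in both, with a median log2 ratio of -0.05.

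The receptor gene Nr3c1 was at 4.41 FPKM in shGR1 and 9.13 in shGR2, against 30.2 in shCtrl, so both knockdown libraries went with their labels. The FPKM of a library summed to 435341 in shGR1, 427704 in shGR2 and 462522 in shCtrl. In each library 14388 to 14484 genes were over 0.3 FPKM. All 7 markers of collecting duct epithelium (Aqp2, Avpr2, Scnn1a, Cdh1, Epcam, Krt8 and Krt18) were expressed, while all 5 endothelial markers and the leukocyte markers Ptprc and Cd3e were under 0.3 FPKM in every library. Of the leukocyte list 2 of 6 markers (Cd68 and Lyz2) were expressed, and the list summed to 5.37 and 9.24 FPKM in shGR1 and shGR2, against 6.28 in shCtrl. Of the fibroblast list 4 of 5 were expressed, and it summed to 3.88 and 9.04 FPKM in shGR1 and shGR2, against 6.44 in shCtrl.

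Of the 10 genes 8 were expressed. Ehf and Elf3 were lower in both knockdown lines, Ets1, Ets2 and Etv4 were higher in both, Elf1 and Elf2 lay close to shCtrl, and Etv5 was higher in shGR1 alone. Counted by direction, with Elf2 among the lower ones at -0.02, 3 of 8 (37.5%) were lower in both lines, beside 43.8% of all expressed genes, and 3 of 8 (37.5%) were higher in both, beside 31.8%. These shares are near those of all genes. The median log2 ratio over the 8 genes was 0.11. Of the 8 genes 1, Ehf, was lower by 2-fold or more in both lines, beside 3.66% of all genes, and 0 were higher by that much, beside 2.54%.

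Limma called 0 of 15438 genes at an adjusted p under 0.05 in the comparison of both knockdown libraries with shCtrl, so 0% of all genes and none of the ETS genes passed. Without adjustment 2157 genes (14.0%) had p under 0.05 in that fit, 1458 lower and 699 higher, and 2 of the 8 expressed ETS genes, Ehf and Elf3, were among the lower ones. Other settings of the test called 0 to 294 genes. The fit has 1 residual degree of freedom, and limma draws the variance of each gene towards that of genes of similar level. The p-values thus rest on the spread between lines made with different hairpins, pooled over many genes. They do not measure the spread between repeated cultures.

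**Figure D1:**
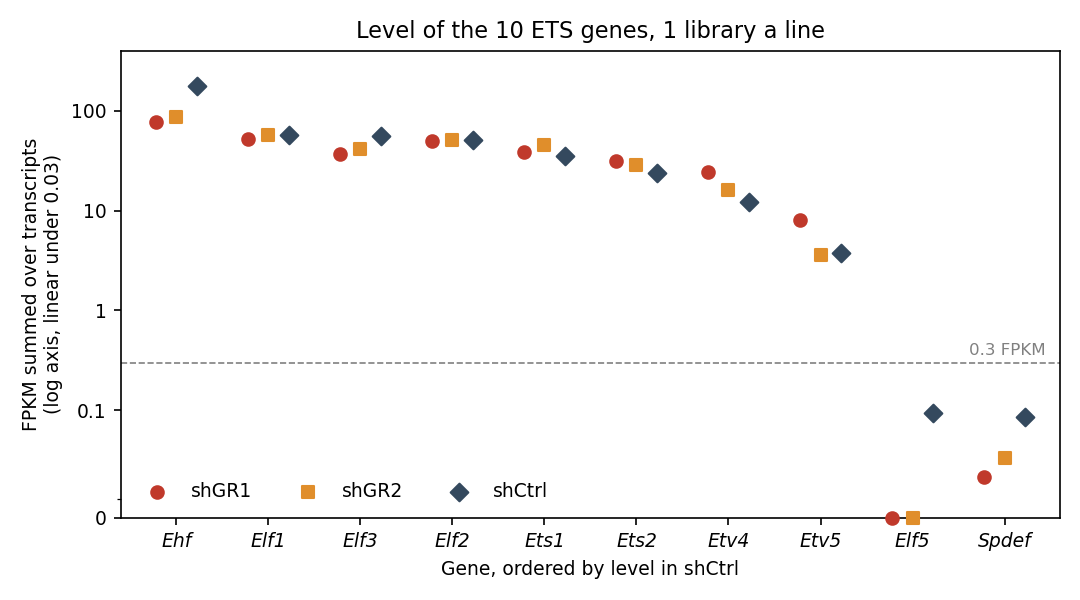
Level of the 10 genes as FPKM summed over transcripts (log axis, linear under 0.03) in shGR1, shGR2 and shCtrl, 1 point per library, with the genes in the order of their level in shCtrl. Ehf stands at 77.2 and 86.7 FPKM in the knockdown lines, against 177.5 in shCtrl, and Elf5 and Spdef lie under the dashed line of 0.3 FPKM in every library.

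Of the epithelium-specific subfamily, Ehf was the gene with the highest level in every line and the one with the lowest mean ratio of the 8. Ehf lies on the minus strand of chromosome 2 (chr2:103263433-103303278, GRCm38) and had 77.2 FPKM in shGR1 and 86.7 in shGR2, against 177.5 in shCtrl. The knockdown lines were thus at 43.5% and 48.8% of the control level. The log2 ratio was -1.12 ± 0.12 (SD, n = 2 lines), more than the spread between the lines, and 3.69% of expressed genes had a lower ratio. In shCtrl only 2.05% of expressed genes were above Ehf. The limma estimate was -1.12 with an SE of 0.11, and its adjusted p of 0.22 did not pass. In 3 of 8 other settings the adjusted p of limma for Ehf was under 0.05, at 0.028 with ratios centred on the median of all genes, 0.016 with a loess trend on abundance removed and 0.049 with robust moderation, and over the 8 it ranged from 0.016 to 0.40. These 3 settings called 1.37%, 1.90% and 0.713% of all genes.

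Nearly all of the Ehf signal came from 1 transcript, Ehf-201, which codes for protein and took 98.6% and 97.5% of the FPKM of the gene in shGR1 and shGR2, against 98.6% in shCtrl. Its level was 76.1 and 84.5 FPKM in shGR1 and shGR2, against 175.0 in shCtrl. Of the other transcripts over 0.3 FPKM, Ehf-202, Ehf-205 and Ehf-206 were also lower in both lines, and each was under 1 FPKM in every library. The short coding transcript Ehf-208 went the other way, with 0.474 and 0.933 FPKM in shGR1 and shGR2, against 0.138 in shCtrl. The lower level of the gene was thus that of its main transcript.

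Elf3, the gene of an epithelial activator that is induced in inflammation, lies on the minus strand of chromosome 1 (chr1:135253575-135258568). It had 36.9 FPKM in shGR1 and 41.2 in shGR2, against 55.7 in shCtrl, so both knockdown lines were under the control. The log2 ratio was -0.51 ± 0.11 (SD, n = 2 lines), and 13.5% of expressed genes had a lower ratio. The adjusted p of limma was 0.29 and ranged from 0.15 to 0.41 over the other settings. The gene was carried by 2 coding transcripts. Elf3-201 had 21.7 and 23.4 FPKM in shGR1 and shGR2, against 32.3 in shCtrl. Elf3-202, whose coding sequence is 1113 bases against 1173 in Elf3-201, had 14.9 and 17.8 FPKM in shGR1 and shGR2, against 23.4 in shCtrl. Both transcripts were lower in both lines, and Elf3-201 took 58.8% and 56.8% of the gene in shGR1 and shGR2, against 57.9% in shCtrl.

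Elf5 and Spdef were not expressed by the threshold. Elf5 (chr2:103411688-103450989), which lies 108.4 kb from Ehf on the opposite strand and acts in mammary and trophoblast epithelium, was listed at 0 in shGR1 and in shGR2, against 0.0928 FPKM in shCtrl. Spdef (chr17:27714352-27728955) had 0.0222 and 0.0331 FPKM in shGR1 and shGR2, against 0.0854 in shCtrl. No fold is given for these levels. The epithelium-specific subfamily was therefore represented in these cells by Ehf and Elf3.

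Of the MAP kinase-responsive pair, both genes were higher in both knockdown lines by less than 1.5-fold. Ets1 (chr9:32636221-32757820, plus strand) had 38.6 FPKM in shGR1 and 45.6 in shGR2, against 35.4 in shCtrl, with a log2 ratio of 0.25 ± 0.17 (SD, n = 2 lines). Ets2 (chr16:95702075-95721051, plus strand) had 31.1 and 28.4 FPKM in shGR1 and shGR2, against 24.0 in shCtrl, with a log2 ratio of 0.31 ± 0.09. The knockdown libraries lay above shCtrl for both genes, by more in shGR2 for Ets1 and by more in shGR1 for Ets2. Adjusted p values of limma were 0.52 for Ets1 and 0.39 for Ets2. The main coding transcript held most of each gene. Ets1-201 took 95.1% and 94.9% of Ets1 in shGR1 and shGR2, against 96.8% in shCtrl. Ets2-201 took 93.6% and 93.5% of Ets2, against 97.0%. It had 29.2 and 26.6 FPKM in shGR1 and shGR2, against 23.2 in shCtrl (0.26 ± 0.09). The 4 Ets2 transcripts not found in GENCODE M21 were also higher in sum, with 1.99 and 1.83 FPKM, against 0.722.

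Of the ureteric bud pair, Etv4 was higher in both lines, while Etv5 was higher in shGR1 and its direction in shGR2 turned with the scaling. Etv4 (chr11:101769742-101785371, minus strand) had 24.3 FPKM in shGR1 and 16.2 in shGR2, against 12.1 in shCtrl. Its log2 ratio of 0.71 ± 0.41 (SD, n = 2 lines) was the highest mean among the 8 genes and 1.00 in shGR1 against 0.41 in shGR2 as the ratio of each line to shCtrl. Etv5 (chr16:22381309-22439719, minus strand) had 8.09 FPKM in shGR1 and 3.57 in shGR2, against 3.78 in shCtrl, so it was higher in shGR1 alone and its mean of 0.51 was under its SD of 0.83. After quantile normalization or removal of a loess trend Etv5 was higher in both lines. Adjusted p values of limma were 0.43 for Etv4 and 0.72 for Etv5. For 7 of the 8 expressed genes the ratio of shGR1 was the farther one from shCtrl, beside 57.0% of all expressed genes.

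**Figure D2:**
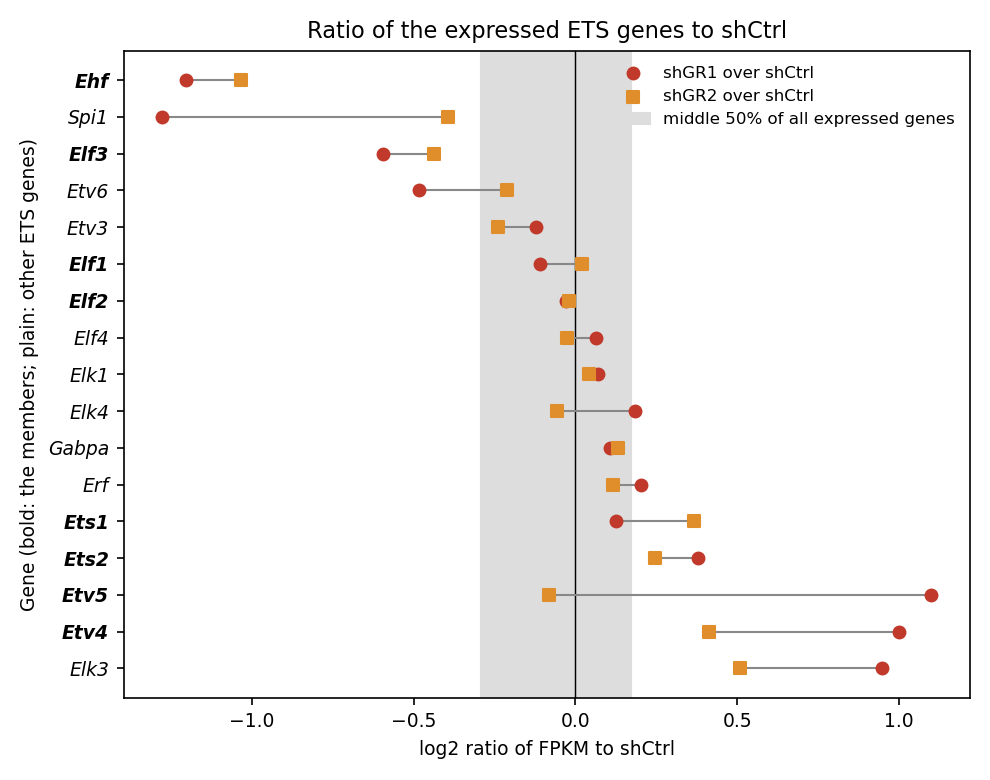
Log2 ratio of FPKM to shCtrl in shGR1 (circles) and shGR2 (squares) for the 17 expressed ETS genes, in bold the 8 described here and in plain type the other 9, with a line joining both knockdown lines of a gene and a band for the middle 50% of the mean ratios of all expressed genes (-0.29 to 0.17). Ehf lies at -1.20 and -1.03 and Elf3 at -0.59 and -0.44, outside the band in both lines, while the points of Etv5 lie on both sides of 0.

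The higher level of Etv4 lay mainly in transcripts that GENCODE M21 does not type as coding. The 9 processed transcripts of Etv4 together had 16.9 FPKM in shGR1 and 11.3 in shGR2, against 6.73 in shCtrl, a log2 ratio of 1.03 ± 0.42 (SD, n = 2 lines). The 3 coding transcripts together had 7.35 and 4.90 FPKM in shGR1 and shGR2, against 5.41 in shCtrl, which is higher in shGR1 and lower in shGR2. Of the processed ones, Etv4-207 starts 13190 bases downstream of the first start of the gene and had 8.95 and 6.34 FPKM in shGR1 and shGR2, against 4.08 in shCtrl. Etv4-204 had 6.02 and 4.08 FPKM in shGR1 and shGR2, against 1.80 in shCtrl. With coding transcripts alone, a choice made after seeing the data, Etv4 was not higher in both lines, at 0.15 ± 0.41, and Etv5 was, at 1.22 in shGR1 and 0.04 in shGR2.

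Elf1 and Elf2, the broadly expressed pair, showed the smallest differences. Elf1 (chr14:79481194-79582494, plus strand) had 52.5 FPKM in shGR1 and 57.5 in shGR2, against 56.7 in shCtrl, which lay between both. Elf2 (chr3:51252720-51340663, minus strand) had 50.2 and 50.5 FPKM in shGR1 and shGR2, against 51.2 in shCtrl. Its log2 ratio of -0.02 ± 0.01 was lower in both lines as deposited and higher in both once the ratios were centred on the median of all genes (0.024), quantile normalized (0.056) or freed of a loess trend (0.019), so its direction was not settled. Adjusted p values of limma were 0.87 for Elf1 and 0.92 for Elf2.

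Beneath the flat level of Elf1 its 2 transcripts went in opposite directions. Elf1-201, which begins at the upstream start on chromosome 14 (base 79481194, in the GC-rich window printed above, 73.0% G and C), had 12.4 FPKM in shGR1 and 16.9 in shGR2, against 25.4 in shCtrl. Elf1-202 begins 34480 bases downstream (base 79515674, in the window with 44.7% G and C) and had 40.2 and 40.6 FPKM in shGR1 and shGR2, against 31.3 in shCtrl. The upstream transcript was lower in both lines, at -0.81 ± 0.32, and the downstream one was higher in both, at 0.37 ± 0.01 (log2 ratio, SD, n = 2 lines). The downstream transcript thus made up 76.5% and 70.6% of Elf1 in shGR1 and shGR2, against 55.3% in shCtrl. Both share 8 of their 9 exons and have the same coding sequence of 1836 bases, so the difference lies in the first exon and the start. Such a pattern was common in these data. Of 2652 genes with at least 2 transcripts over a mean of 5 FPKM, the 2 highest went in opposite directions in both lines for 35.9%. For 10.9% they did so with a share that moved by at least 15.4 points in each line. That bound is the smaller shift of Elf1, in shGR2, and Elf1 moved by 21.2 points in shGR1. Transcript levels are estimates that divide shared fragments, and no error came with them.

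Elf2 was built of 10 transcripts over 0.3 FPKM, from several starts. Those of the first start summed to 21.8 and 22.2 FPKM in shGR1 and shGR2, against 24.3 in shCtrl. Those of the third start, 63088 bases downstream, summed to 21.6 and 21.0 FPKM in shGR1 and shGR2, against 23.8 in shCtrl. The second start, 14634 bases downstream of the first, was higher in both lines, with 6.36 and 6.81 FPKM in shGR1 and shGR2, against 2.66 in shCtrl. Nearly all of it was Elf2-208, a transcript annotated as a target of nonsense-mediated decay, with a log2 ratio of 1.30 ± 0.08 (SD, n = 2 lines) and 12.6% and 13.5% of the gene in shGR1 and shGR2, against 5.19% in shCtrl. The 8 coding transcripts of Elf2 summed to 39.4 and 39.4 FPKM in shGR1 and shGR2, against 44.3 in shCtrl, at -0.17 ± 0.00.

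**Figure D3:**
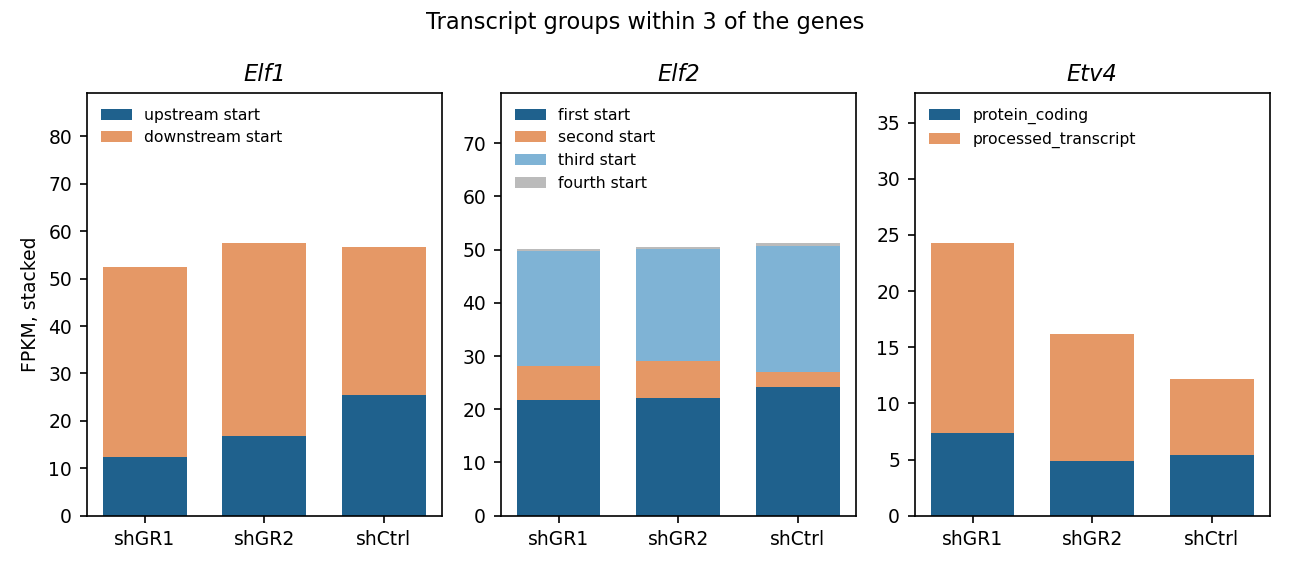
FPKM stacked by transcript group in shGR1, shGR2 and shCtrl (1 library each), for Elf1 and Elf2 by start site and for Etv4 by the transcript type of GENCODE M21. The upstream part of Elf1 is 12.4 and 16.9 FPKM in the knockdown lines, against 25.4 in shCtrl, and the processed part of Etv4 is 16.9 and 11.3, against 6.73.

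Over all 10 genes 34 of 66 transcripts were over 0.3 FPKM in a library. Of these 15 (44.1%) were lower in both knockdown lines, beside 40.2% of 46567 transcripts of all genes, and 14 (41.2%) were higher in both, beside 33.1%. These shares were near the background too. Elf1 overlaps Wbp4 on the opposite strand, which had 24.0 and 22.8 FPKM in shGR1 and shGR2, against 22.0 in shCtrl. None of the sources used here says whether the libraries kept strand, so reads from overlapping genes may not be separated.

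In level the 10 genes kept Ehf first and Etv5 last of the expressed ones in every line. In shGR1 Ets1 (38.6 FPKM), Elf2 (50.2) and Elf1 (52.5) were above Elf3 (36.9), and in shGR2 Ets1 (45.6), Elf2 (50.5) and Elf1 (57.5) were above Elf3 (41.2). In shCtrl Elf1 (56.7) was above Elf3 (55.7) as well, whereas Elf2 (51.2) and Ets1 (35.4) were under Elf3. Over the knockdown lines the values of Ets1 and Elf3 overlapped, while those of Elf1 and Elf2 did not.

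**Figure D4:**
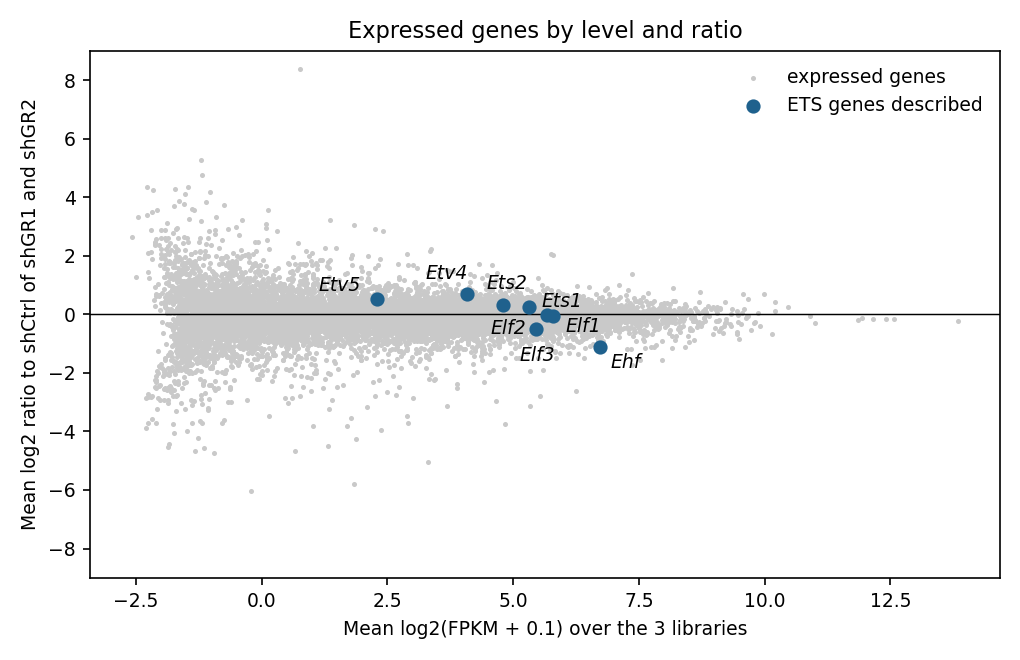
Mean log2 ratio to shCtrl over shGR1 and shGR2 against mean log2(FPKM + 0.1) over the 3 libraries, 1 grey point per expressed gene with a finite ratio (15025 genes) and blue points for the 8 expressed ETS genes. Ehf lies at -1.12 and Elf3 at -0.51, while Elf1 and Elf2 lie near 0.

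Set against the rest of the family, the ETS transcripts of the knockdown lines held a smaller part of Ehf and Elf3. Over 26 ETS genes (the 10 and 16 others) the FPKM summed to 525.9 in shGR1 and 519.1 in shGR2, against 594.4 in shCtrl. These sums are not scaled to the library totals, of which that of shCtrl was also the highest. Ehf made up 14.7% and 16.7% of the sum in shGR1 and shGR2, against 29.9% in shCtrl. Ehf and Elf3 together had 114.1 and 127.9 FPKM in shGR1 and shGR2, against 233.2 in shCtrl, which is 48.9% and 54.8% of the control. The other 24 genes summed to 411.8 and 391.2 FPKM in shGR1 and shGR2, against 361.2 in shCtrl, which is 114.0% and 108.3% of the control. A bulk library cannot tell fewer cells that express a gene from less RNA per cell.

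**Figure D5:**
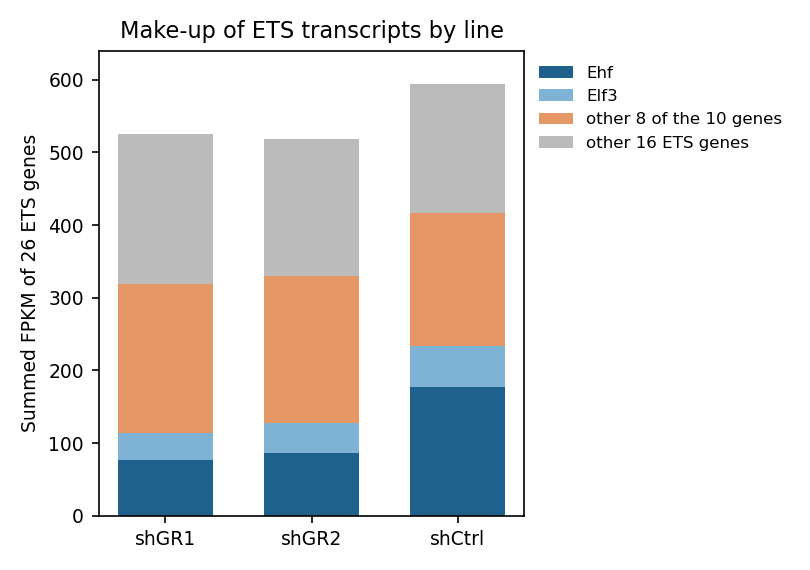
Summed FPKM of 26 ETS genes in shGR1, shGR2 and shCtrl (1 library each), stacked from Ehf at the base through Elf3 and the other 8 described genes to the other 16 genes of the family. The Ehf part is 77.2 and 86.7 FPKM in the knockdown lines, against 177.5 in shCtrl, and the whole is 525.9 and 519.1, against 594.4.

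Of the 16 other ETS genes 9 were expressed, 3 lower in both lines, 4 higher in both and 2 in opposite directions, with a median log2 ratio of 0.06. Among all expressed genes 43.8% were lower in both lines and 31.8% higher. Elk3, a ternary complex factor of SRF, had 48.1 and 35.5 FPKM in shGR1 and shGR2, against 25.0 in shCtrl (0.73 ± 0.31). Spi1, the ETS factor of myeloid and B cells, had 1.27 and 2.34 FPKM in shGR1 and shGR2, against 3.08 in shCtrl (-0.83 ± 0.63). Etv6, a repressor of the family, had 10.02 and 12.09 FPKM in shGR1 and shGR2, against 14.0 in shCtrl (-0.35 ± 0.19). Smaller mean ratios followed for Etv3 (-0.18), Erf (0.16) and Gabpa (0.12), the DNA-binding ETS subunit of GABP.

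Of 15 partners and regulators of ETS proteins all were expressed, 6 lower in both lines, 5 higher in both and 4 in opposite directions, with a median of -0.04. The shares over all expressed genes were 43.8% lower and 31.8% higher. Gabpb1, the partner subunit of GABPA, had 34.5 and 29.8 FPKM in shGR1 and shGR2, against 20.0 in shCtrl (0.68 ± 0.15). Runx1, whose product binds DNA together with ETS1, had 31.8 and 25.9 FPKM in shGR1 and shGR2, against 20.2 in shCtrl (0.51 ± 0.21). Map2k2, a kinase gene of the RAS pathway, had 37.5 and 34.4 FPKM in shGR1 and shGR2, against 45.4 in shCtrl (-0.34 ± 0.09).

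Of 14 epithelial genes listed for a link to ELF3, EHF or ELF5, 13 were expressed. Of these 4 were lower in both lines, 7 higher in both and 2 in opposite directions, with a median of 0.14. The shares over all expressed genes were 43.8% lower and 31.8% higher. Aqp2 had 0.751 FPKM in shGR1 and 2.14 in shGR2, against 9.55 in shCtrl, a log2 ratio of -2.91 ± 1.07. Avpr2, the vasopressin receptor gene, had 12.8 and 12.1 FPKM in shGR1 and shGR2, against 28.5 in shCtrl (-1.20 ± 0.06). The paper cites work that implicates these ETS factors in Aqp2 transcription and names no such link for Avpr2. Tgfbr2, a receptor gene whose promoter ELF3 is known to activate, went the other way with 53.4 and 60.0 FPKM in shGR1 and shGR2, against 40.4 in shCtrl (0.49 ± 0.12). Ptgs2 (0.39 ± 0.40), a cyclooxygenase gene, and Cldn4 (0.32 ± 0.17), a tight junction gene, were also higher in both lines, while Cdh1 (-0.28 ± 0.15), the gene of E-cadherin, was lower in both. The part of the ETS genes in these differences was not tested.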

How the data were processed

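RNA was sequenced from the mpkCCD lines shGR1, shGR2 and shCtrl, 1 library each, under vehicle. The deposited values are FPKM per transcript that the authors estimated, with Cufflinks 2.2.1 and Cuffdiff, HISAT2 and bcl2fastq 2.20 being the other tools in the submitters' processing notes. The notes name the build GRCm39, but for 58 of the 62 ETS transcripts found in GENCODE M21 the GRCm38 position lay inside the deposited one. All positions are given on GRCm38. The sources used here give no depth, so values carry no counting error. Columns and files holding the authors' own ratios and p-values between lines were not used.

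FPKM were summed per symbol with pandas 2.3.3, and genes over 0.3 FPKM in any library were kept. Limma 3.58.1 in R 4.3.3, with an abundance trend on log2(FPKM + 0.1), compared both shGR libraries with shCtrl, and p-values were adjusted by Benjamini-Hochberg over all expressed genes (threshold 0.05). The fit was also run on simulated data in which all libraries had the same noise. The lone control is assumed to vary as the knockdown lines do, which those simulated data could not test. Transcript types and starts are from GENCODE M21, in which 62 of the 66 transcripts were found, and promoter windows are from RefSeq.

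Alternatives were other scalings, filters, pseudocounts, moderation, the highest transcript alone and each knockdown line left out. All 10 genes are named, with up to 6 of each related list by the size of the ratio, and the 3 genes of at least 5 FPKM nearest to Ehf in both ratios. The genes and lists were chosen with earlier results of these data known. Values of some listed genes are not reported here.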

Additional observations from a re-analysis of the deposited data

How the results depend on the processing

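Of 64 alternative values for the log2 ratios of the 8 expressed genes, 57 moved by less than the SD over the knockdown lines, 4 moved further and 3 reversed the direction of a gene that was lower or higher in both lines. These 3 were of Elf2, at 0.024 median-centred, 0.056 after quantile normalization and 0.019 with a loess trend removed. Leaving out 1 of 2 lines always moves a mean by less than their SD. Values with a line left out therefore could not count as moved or reversed, and they say nothing about stability. Etv5 without shGR1, at -0.08 against 0.51, is counted among the 57 for this reason. With both lines kept, the other settings put Ehf between -1.13 and -1.03 and Elf3 between -0.52 and -0.45. In Elf1 and Etv5 the lines differed in direction. With single lines included, Elf1 ran from -0.11 to 0.37 and Etv5 from -0.08 to 1.10. The count lower in both lines was 3 and became 5 with no filter on level, which lets in Elf5 and Spdef, and 2 with each of those 3 scalings or the highest transcript of a gene alone. The count higher in both was 3 and became 5 after quantile normalization, with the trend removed and with the highest transcript alone. With 1 knockdown line left out both counts were 4. Member transcripts lower in both lines numbered 15, and 8 over 1 FPKM, a filter that leaves fewer transcripts, so these 2 counts cannot be compared. Shares of all genes and transcripts by direction were taken only at 0.3 FPKM without rescaling. The counts under other settings thus have no background beside them. Limma calls over all genes numbered 0, but 212 median-centred, 294 with the trend removed and 110 with robust moderation. The cause was not tested. Unadjusted p under 0.05 split into 1458 lower and 699 higher, and 1121 lower and 1138 higher after quantile normalization. Limma could not be fitted with 1 knockdown line left out, since no residual degree of freedom remains. No paired analysis was possible, because there was 1 control library and the labels give no pairing. With 1 library a line and no fragment counts, a difference in 1 line has no replicate check.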

Other observations

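Among 11 other epithelial transcription factor genes 9 were expressed, and 7 were lower in both knockdown lines and 2 higher in both, with a median log2 ratio of -0.41, beside 43.8% lower and 31.8% higher among all expressed genes. Ovol2, a repressor that keeps epithelial identity, had 1.81 FPKM in shGR1 and 1.62 in shGR2, against 3.11 in shCtrl (-0.86 ± 0.11, SD, n = 2 lines). Grhl1, a grainyhead factor, had 3.66 and 5.04 FPKM in shGR1 and shGR2, against 6.01 in shCtrl (-0.48 ± 0.33). Tfcp2l1, a factor of collecting duct cell types, had 78.0 and 69.3 FPKM in shGR1 and shGR2, against 101.0 in shCtrl (-0.46 ± 0.12). Grhl2 had 24.6 and 22.3 FPKM in shGR1 and shGR2, against 31.7 in shCtrl (-0.44 ± 0.10), and Gata3 had 43.2 and 46.6, against 59.6 (-0.41 ± 0.08).

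Of 8 ureteric bud genes of the RET pathway 4 were expressed, 1 lower in both lines, 1 higher in both and 2 in opposite directions, with a median log2 ratio of 0.0087. Among all expressed genes 43.8% were lower in both lines and 31.8% higher. Ret, Gfra1, Wnt11 and Cxcr4 were under 0.3 FPKM in every library. Spry1, a feedback inhibitor of receptor tyrosine kinases, had 17.3 and 14.9 FPKM in shGR1 and shGR2, against 9.53 in shCtrl (0.75 ± 0.15). Met was lower in both lines at -0.17 ± 0.16, and Myb (0.07) and Mmp14 (-0.06) were in opposite directions in the 2 lines. Of 8 genes of the goblet cell program that SPDEF drives, 3 were expressed (Creb3l4, Tff3 and Spink4), each under 1.5 FPKM, and Foxa3, Agr2, Creb3l1, Muc5ac and Muc5b were not.

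Of 9784 genes that averaged 5 FPKM or more, the 3 whose pair of log2 ratios lay nearest to that of Ehf were Atp1b1, Atp5k-ps2 and Chn2. Atp1b1, the beta subunit of the sodium pump, lay at a distance of 0.0097 with 249.9 and 281.6 FPKM in shGR1 and shGR2, against 573.2 in shCtrl. With 3 libraries such nearness is a description of 2 ratios only.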
